A study of Mus musculus with 6 samples.

Results

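The 10 genes described here, Atf4, Atf5, Ddit3, Nupr1, Trib3, Sesn2, Asns, Chac1, Fgf21 and Gdf15, belong to the integrated stress response (ISR) that the transcription factor ATF4 controls. They were picked by name, with no threshold on a value but with earlier results of these data known, out of the 54777 genes in the table of liver RNA levels. Ddit3 had 2 rows, so that 11 rows carried the 10 names. The livers came from 3 Wtap-HKO mice and 3 Wtapflox/flox mice labelled C57BL/6 (C57BL/6J in the study's methods), 8 weeks of age and on a normal chow diet, and the study states that its mice were male. Wtap-HKO mice carried floxed Wtap alleles together with 1 copy of Alb-Cre, a Cre recombinase driven by the albumin promoter, which is active in hepatocytes. Wtapflox/flox mice carried the same floxed alleles without Cre, so that the comparison included the presence of Cre. Wtap encodes WTAP, a nuclear regulatory subunit of the complex that writes N6-methyladenosine on RNA, and the study asked how liver gene expression differs when hepatocytes lose it. RNA was taken from whole liver, so that fewer cells of a type and less RNA per cell cannot be told apart.

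The ISR begins when a kinase phosphorylates the translation factor eIF2 on its alpha subunit: PERK in ER stress, GCN2 in amino acid shortage, PKR in viral infection or HRI in haem shortage and mitochondrial stress. General protein synthesis then drops, while the mRNA of ATF4 is translated more efficiently because of short upstream reading frames in its leader, so that ATF4 protein can increase without an increase in Atf4 mRNA. ATF4 with partner proteins of the C/EBP family turns on genes for amino acid supply, redox defence, feedback control and cell death, and hepatocytes release FGF21 and GDF15 under this response. RNA-seq reads the mRNA of these genes only.

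ATF4 and C/EBP dimers are known to bind a composite element, the C/EBP-ATF response element (CARE). Its letters TGATGNAA were searched on both strands in the promoter sequences of RefSeq on GRCm38.p6, which run from 250 bases before to 50 bases after each transcript start. All 10 genes had a promoter there, in 12 windows because Atf5 and Gdf15 each have a further start. The element was present in 5 of the 10 genes, against 4.51% of all 27025 genes in the table and 3.97% of its 32851 windows. The cAMP response element TGACGTCA, on both strands, was in none of the 12 windows and in 1.79% of all windows. The 10 genes were picked from the response that ATF4 controls, so that these shares stand for reference and do not test the set. A match is a description of letters in these windows, and no binding was measured. The stretches around the 5 matches are shown because 3 of these genes, Nupr1, Trib3 and Asns, were higher in Wtap-HKO livers and 2 of them, Chac1 and Fgf21, were not called on deposited FPKM. All read 5′ to 3′ along the gene, with the element in capitals. It reads TTGCATCA or TTACATCA where the match is on the strand opposite to the gene.
Nupr1: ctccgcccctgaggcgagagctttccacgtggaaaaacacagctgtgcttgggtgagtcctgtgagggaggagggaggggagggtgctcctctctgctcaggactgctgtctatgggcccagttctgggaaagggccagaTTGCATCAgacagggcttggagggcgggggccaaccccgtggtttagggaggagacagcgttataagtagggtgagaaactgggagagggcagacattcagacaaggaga
Trib3: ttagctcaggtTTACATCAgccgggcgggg
Asns: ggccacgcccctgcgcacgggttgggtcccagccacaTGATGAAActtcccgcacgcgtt
Chac1: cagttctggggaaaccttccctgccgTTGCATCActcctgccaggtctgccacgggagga
Fgf21: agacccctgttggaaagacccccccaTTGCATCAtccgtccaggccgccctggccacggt
The Nupr1 stretch covers chr7:126625471-126625720 on the minus strand, which is the whole 250 bases before the RefSeq start, and its element lies at positions -110 to -103. This RefSeq start is inside the deposited gene, which reaches to 126630861, so that the stretch is the promoter of a shorter transcript. The Trib3 stretch covers chr2:152344028-152344057 on the minus strand, with the element at positions 15 to 22 after the RefSeq start and just outside the deposited gene. The Asns stretch is chr6:7693210-7693269 on the minus strand, with the element at -23 to -16. The Chac1 stretch is chr2:119351023-119351082 on the plus strand, with the element at -193 to -186, and the Fgf21 stretch is chr7:45615596-45615655 on the minus strand, with the element at -139 to -132. Nupr1, Chac1 and Fgf21 shared the same 8 letters, TGATGCAA on the opposite strand, whereas Trib3 had TGATGTAA and Asns TGATGAAA. Gdf15 and Sesn2, which were also higher in Wtap-HKO livers, had no match in these windows, nor had Atf4, Atf5 and Ddit3.

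Of the 10 genes, 5 were higher in Wtap-HKO livers, Nupr1, Trib3, Gdf15, Asns and Sesn2, and none was lower. A gene was called where the adjusted p was under 0.05 in limma on log2(FPKM + 0.2), adjusted over the 16547 genes that averaged 0.2 FPKM or more, a limit that all 10 genes passed. FPKM are fragments counted per length of the gene and per depth of the library. Over all genes tested, 19.5% were called higher and 20.7% lower. The 10 genes were chosen with earlier results of these data known, so that these shares stand for reference and do not test the set. The count of 0 lower genes was also 0 at an unadjusted p under 0.05, and 0 with limma's voom on the rebuilt reads. The same 5 genes were those in which every Wtap-HKO library was above every Wtapflox/flox library, which was true of 26.8% of all genes tested. The median log2 fold change of the 10 genes was 0.79, against 0.005 for all genes tested.

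**Figure D1:**
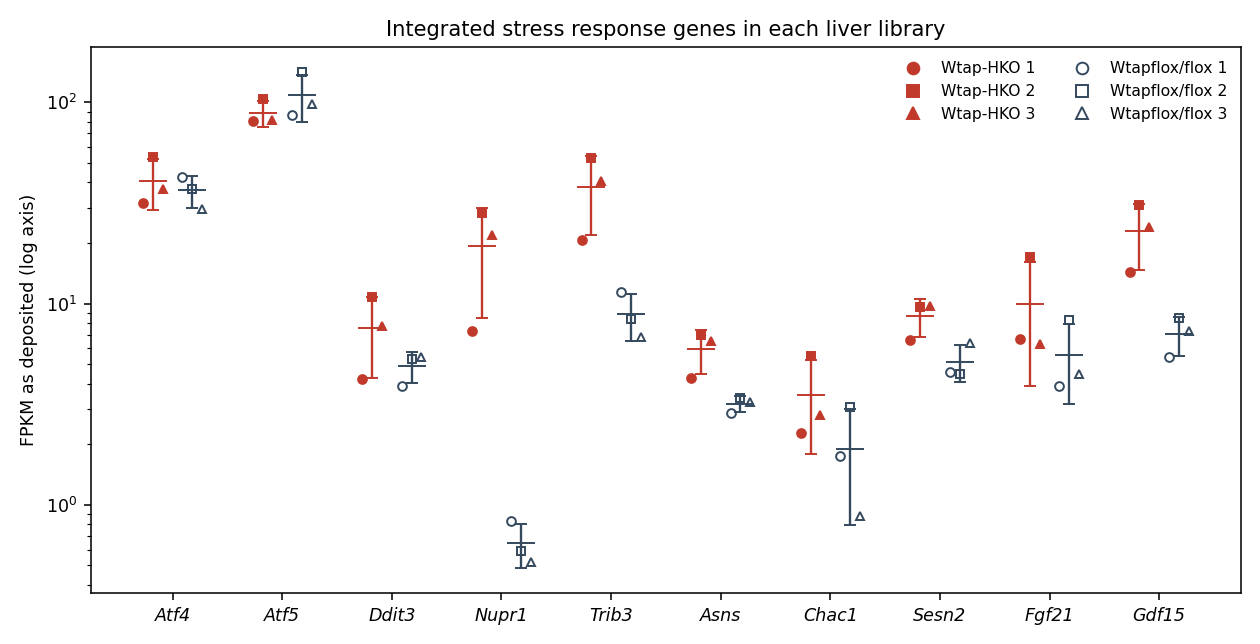
Deposited FPKM (log axis) of the 10 genes in each library, with Wtap-HKO libraries as filled red symbols and Wtapflox/flox libraries as open dark symbols, and bars for the mean and SD of 3 libraries. The groups do not overlap for Nupr1, Trib3, Asns, Sesn2 and Gdf15, and the widest gap is that of Nupr1, at 7.32 to 28.3 FPKM in Wtap-HKO and 0.517 to 0.827 FPKM in Wtapflox/flox livers.

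Among the transcription factors, the mRNA of ATF4 itself was not called different. Atf4 (ENSMUSG00000042406, GRCm38 chromosome 15, 80255184 to 80257541, plus strand) had 31.5, 53.4 and 37.0 FPKM in Wtap-HKO livers 1, 2 and 3, against 42.7, 37.3 and 29.6 FPKM in Wtapflox/flox livers. The groups overlapped, with 1 of 3 Wtap-HKO libraries above the highest Wtapflox/flox library. The log2 fold change was 0.13 ± 0.22 (SE), with a 95% interval of -0.39 to 0.65 (limma adjusted p = 0.657), which holds values on both sides of 0. Its sign rested on single libraries, at -0.08 without Wtap-HKO 2 and -0.01 without Wtapflox/flox 3.

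Atf5 encodes a factor related to ATF4 whose mRNA carries similar upstream reading frames and which is abundant in liver. Atf5 (chromosome 7, 44812256 to 44816658, minus strand) had 80.6, 104 and 81.4 FPKM in Wtap-HKO livers, against 86.0, 141 and 98.0 FPKM in Wtapflox/flox livers. The ranges overlapped, and the log2 fold change was -0.27 ± 0.20 (SE, limma adjusted p = 0.328, 95% interval -0.74 to 0.21). It was the single gene of the 10 with a value below 0 on the deposited scale, and it was not called under any of the 16 alternatives. Nup62 and Il4i1 on the opposite strand each share 82 bases of the 1993 exon bases of Atf5, and the strand setting of the counting is not given in the sources used here.

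Ddit3 encodes CHOP, a C/EBP family factor that ATF4 induces and that takes part in cell death under lasting stress. Ddit3 (chromosome 10, 127290774 to 127296288, plus strand) had 4.20, 10.7 and 7.71 FPKM in Wtap-HKO livers, against 3.91, 5.32 and 5.44 FPKM in Wtapflox/flox livers. Wtap-HKO 2 and 3 were above all Wtapflox/flox libraries and Wtap-HKO 1 was among them. The log2 fold change was 0.52 ± 0.33 (SE, limma adjusted p = 0.240, 95% interval -0.25 to 1.30). Without Wtap-HKO 1 it was 0.88 with an adjusted p of 0.0239, so that this library decided the call. The further row named Ddit3 (ENSMUSG00000116429, 105 bases within the main gene) was at 0 reads in all 6 libraries and is not considered further. Mars, on the opposite strand and lower in Wtap-HKO livers, shares 68 of the 1713 exon bases of Ddit3.

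Nupr1 encodes a small chromatin-associated stress protein, and its mRNA showed the largest difference of the 10 genes. Nupr1 (ENSMUSG00000030717, chromosome 7, 126623249 to 126630861, minus strand) had 7.32, 28.3 and 22.0 FPKM in Wtap-HKO livers, against 0.827, 0.591 and 0.517 FPKM in Wtapflox/flox livers. These values rest on 386 to 1537 reads per library in Wtap-HKO and on 18 to 27 reads in Wtapflox/flox livers. The lowest Wtap-HKO library was thus far above the highest Wtapflox/flox library, although Wtap-HKO libraries differed among themselves by more than the Wtapflox/flox libraries did. The means were 19.2 ± 10.8 and 0.645 ± 0.162 FPKM (SD, n = 3 each), a ratio of 29.8. On the log2(FPKM + 0.2) scale, on which changes of low genes come out smaller than they are, the difference was 4.33 ± 0.48 (SE, limma adjusted p = 0.000903), and 99.9% of all genes tested had a smaller log2 fold change.

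Trib3 and Sesn2 encode restraining proteins: TRIB3 is a pseudokinase that binds ATF4 and CHOP and limits their activity and also binds AKT, and sestrin 2 is a leucine sensor that holds back mTORC1. Trib3 (chromosome 2, 152337422 to 152344032, minus strand) had 20.8, 52.6 and 40.6 FPKM in Wtap-HKO livers, against 11.4, 8.35 and 6.80 FPKM in Wtapflox/flox livers. All Wtap-HKO libraries were above all Wtapflox/flox libraries. Its log2 fold change was 2.01 ± 0.35 (SE, limma adjusted p = 0.00495), with means of 38.0 ± 16.1 and 8.86 ± 2.35 FPKM (SD, n = 3 each).

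The difference of Sesn2 was smaller and less secure. Sesn2 (chromosome 4, 132492032 to 132510501, minus strand) had 6.56, 9.67 and 9.77 FPKM in Wtap-HKO livers, against 4.59, 4.46 and 6.38 FPKM in Wtapflox/flox livers. The groups were only narrowly separated, between Wtap-HKO 1 and Wtapflox/flox 3. The log2 fold change was 0.73 ± 0.20 (SE, limma adjusted p = 0.0287). The call was lost without Wtap-HKO 2 (adjusted p = 0.0818), Wtap-HKO 3 (0.0949), Wtapflox/flox 1 (0.0873) or Wtapflox/flox 2 (0.0870), and with no filter on low values (0.0503).

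Asns and Chac1 act on amino acids and glutathione. Asparagine synthetase, the product of Asns, makes asparagine from aspartate and glutamine, and CHAC1 degrades glutathione. Asns (chromosome 6, 7675169 to 7693254, minus strand) had 4.25, 6.97 and 6.55 FPKM in Wtap-HKO livers, against 2.87, 3.41 and 3.25 FPKM in Wtapflox/flox livers. Every Wtap-HKO library was above every Wtapflox/flox library, and the log2 fold change was 0.83 ± 0.19 (SE, limma adjusted p = 0.0148). It missed the threshold without Wtap-HKO 3 (adjusted p = 0.0570) and without Wtapflox/flox 1 (adjusted p = 0.0514).

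Chac1 (chromosome 2, 119351229 to 119354381, plus strand) had 2.27, 5.49 and 2.79 FPKM in Wtap-HKO livers, against 1.74, 3.07 and 0.883 FPKM in Wtapflox/flox livers. Only Wtap-HKO 2 was above all Wtapflox/flox libraries. Its log2 fold change of 0.87 was as large as that of Asns, but its SE was 0.46, so that it was not called (limma adjusted p = 0.173, 95% interval -0.22 to 1.96). The values of Chac1 rest on 78 to 194 reads per library in Wtap-HKO and 20 to 71 reads in Wtapflox/flox livers.

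Of the genes for secreted hormones, Gdf15 was called higher and Fgf21 was not, and the difference between them was not tested. Gdf15 encodes a distant TGF-beta family hormone that lowers food intake through a receptor in the hindbrain. Gdf15 (chromosome 8, 70629393 to 70632456, minus strand) had 14.3, 30.8 and 24.1 FPKM in Wtap-HKO livers, against 5.41, 8.48 and 7.33 FPKM in Wtapflox/flox livers. No library overlapped between the groups. The log2 fold change was 1.63 ± 0.29 (SE, limma adjusted p = 0.00555), with means of 23.0 ± 8.29 and 7.07 ± 1.55 FPKM (SD, n = 3 each).

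Fgf21 encodes a hormone that liver releases in fasting, in amino acid shortage and in ER stress, and that acts through FGF receptors with the co-receptor beta-Klotho. Fgf21 (chromosome 7, 45613886 to 45615490, minus strand) had 6.67, 17.0 and 6.28 FPKM in Wtap-HKO livers, against 3.89, 8.25 and 4.48 FPKM in Wtapflox/flox livers. Wtap-HKO 2 stood apart from the other libraries of its group, and Wtap-HKO 1 and 3 lay below Wtapflox/flox 2. The log2 fold change was 0.75 ± 0.43 (SE, limma adjusted p = 0.211, 95% interval -0.28 to 1.78). It was 0.29 without Wtap-HKO 2.

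The genes went up and down together from library to library within the Wtap-HKO group. Wtap-HKO 2 was the highest of its group for 9 of the 10 genes, with Sesn2 as the exception, and Wtap-HKO 1 was the lowest for 9 of the 10, with Fgf21 as the exception. Over all genes tested, 36.8% were highest in Wtap-HKO 2 and 33.1% were lowest in Wtap-HKO 1. The median deviation of the 10 genes from the mean of their group was -0.46 in Wtap-HKO 1, 0.53 in Wtap-HKO 2 and 0.13 in Wtap-HKO 3 on the log2 scale. Wtapflox/flox 1, 2 and 3 had median deviations of -0.14, 0.12 and -0.17, and were the highest of their group for 3, 5 and 2 of the genes. In Wtapflox/flox livers the spread was largest for Chac1 and Fgf21. Since the 10 genes share these libraries, they are not replicates of one another.

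**Figure D2:**
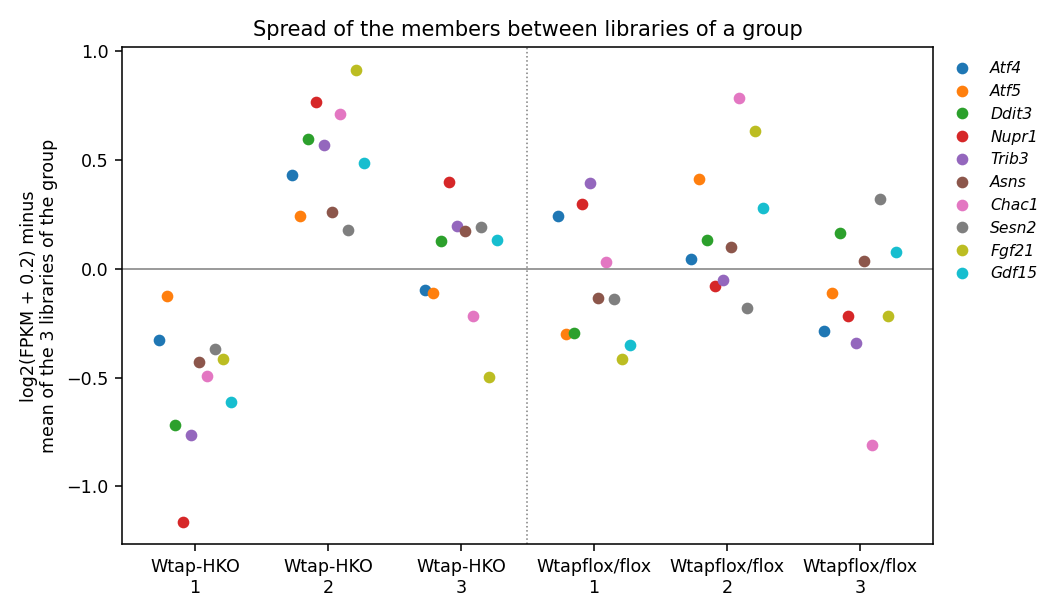
Deviation of each gene from the mean of the 3 libraries of its group, on the log2(FPKM + 0.2) scale, by library and with 1 colour per gene. Wtap-HKO 1 lies below 0 for all 10 genes and Wtap-HKO 2 above 0 for all 10, whereas Wtapflox/flox libraries hold points on both sides of 0.

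Setting each gene against Atf4 in the same library removes any factor that scales a whole library. Nupr1 stood at 0.232, 0.531 and 0.594 of the Atf4 level in Wtap-HKO livers, against 0.0193, 0.0158 and 0.0175 in Wtapflox/flox livers. Trib3 was at 0.659, 0.985 and 1.10 of Atf4 in Wtap-HKO livers, against 0.267, 0.224 and 0.230 in Wtapflox/flox livers. Trib3 mRNA was thus about as abundant per length as that of Atf4 in Wtap-HKO 2 and 3, and well under it in all Wtapflox/flox livers. Gdf15 was at 0.453, 0.576 and 0.651 of Atf4 in Wtap-HKO livers, against 0.126, 0.227 and 0.248 in Wtapflox/flox livers. Asns was at 0.135, 0.130 and 0.177 of Atf4 in Wtap-HKO livers, against 0.0672, 0.0915 and 0.110 in Wtapflox/flox livers. These 4 of 9 ratios did not overlap between groups, and all 4 were higher in Wtap-HKO livers, where 13.2% of the 16546 other genes tested had a ratio to Atf4 without overlap in that direction. The ratios of Sesn2, Ddit3, Chac1, Fgf21 and Atf5 overlapped.

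**Figure D3:**
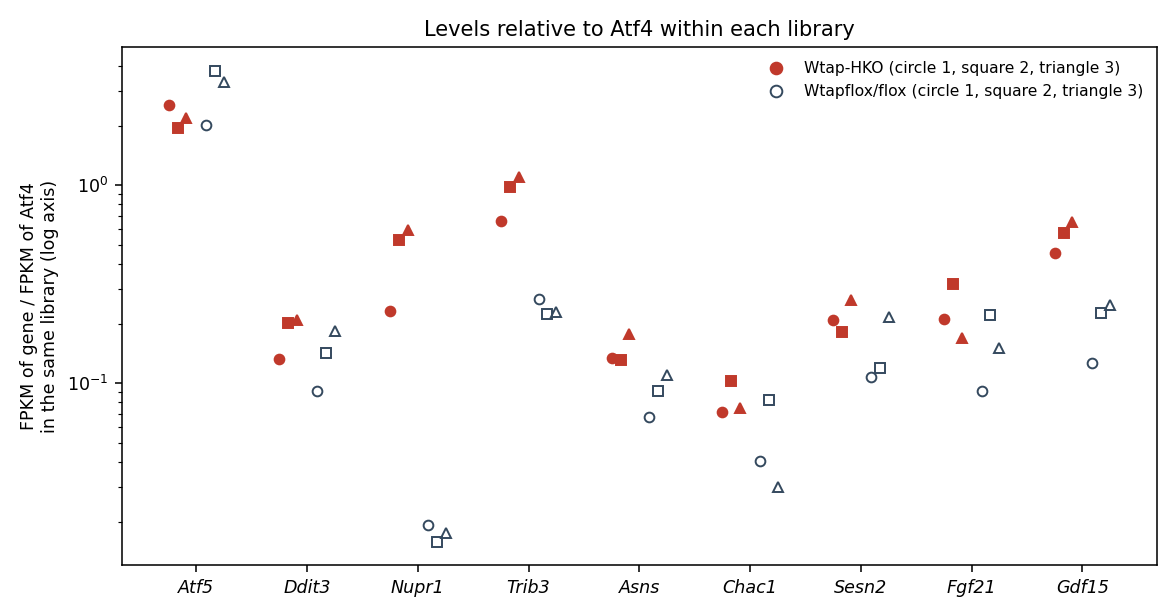
FPKM of 9 genes divided by the FPKM of Atf4 in the same library (log axis), with Wtap-HKO libraries filled and Wtapflox/flox libraries open. Nupr1, Trib3, Asns and Gdf15 have no overlap between groups, and the other 5 genes do.

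By mean FPKM, which is per length, the order in Wtap-HKO livers was Atf5 (88.6), Atf4 (40.6), Trib3 (38.0), Gdf15 (23.0), Nupr1 (19.2), Fgf21 (9.99), Sesn2 (8.66), Ddit3 (7.55), Asns (5.92) and Chac1 (3.52). In Wtapflox/flox livers it was Atf5 (108), Atf4 (36.5), Trib3 (8.86), Gdf15 (7.07), Fgf21 (5.54), Sesn2 (5.14), Ddit3 (4.89), Asns (3.18), Chac1 (1.90) and Nupr1 (0.645). Nupr1 was the lowest of the 10 genes in Wtapflox/flox livers and the fifth in Wtap-HKO livers, while the other genes kept their order. In Wtap-HKO livers, Atf5 was the single gene whose range over libraries did not overlap with that of the next in order. In Wtapflox/flox livers the neighbours without overlap were Atf5 and Atf4, Atf4 and Trib3, Ddit3 and Asns, and Chac1 and Nupr1.

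The deposited FPKM carry a scaling between libraries that puts the median of all genes near 0, and on the TPM scale, where each library sums to the same total, that median was 0.56 on the log2 scale. On that scale 9 of the 10 genes were called higher, all but Atf5, against 48.8% of all genes tested, and 0 were called lower. Atf4 had a log2 fold change of 0.72 there (limma adjusted p = 0.0151), which is 0.16 above the median of all genes. Ddit3 had 1.11 (0.55 above that median), Chac1 1.49 (0.93 above) and Fgf21 1.34 (0.78 above). Atf5, at 0.32, was 0.24 below the median of all genes. Relative to the median gene, the values on the TPM scale were thus close to those on the deposited scale: 4.54 for Nupr1, 2.04 for Trib3, 1.67 for Gdf15, 0.87 for Asns and 0.76 for Sesn2. Which scale fits the amount of RNA per cell was not measured.

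**Figure D4:**
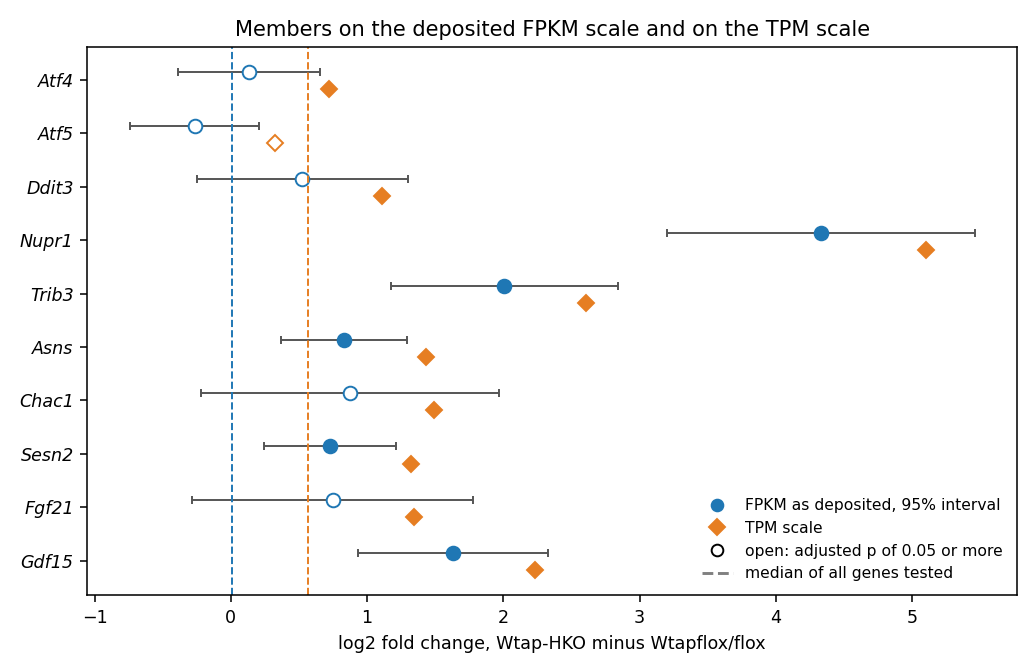
Log2 fold change of the 10 genes, Wtap-HKO minus Wtapflox/flox, on deposited FPKM (circles, with 95% intervals) and on the TPM scale (diamonds), with open symbols for an adjusted p of 0.05 or more. Dashed lines mark the medians of all genes tested, at 0.005 and 0.56, and Atf5 is the single gene left of both.

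Levels of mRNA for the step before ATF4 were mixed, and phosphorylation of eIF2 was not measured. Of 20 genes for eIF2 and its control, 4 were higher and 6 lower on the deposited scale, with a median log2 fold change of -0.14, whereas on the TPM scale 12 were higher and 1 lower, with a median of 0.44. The shares over all genes tested were 19.5% higher and 20.7% lower on the deposited scale, and 48.8% higher on the TPM scale. These shares are the reference for this list and for those below. Eif2ak3, which encodes PERK, averaged 7.21 ± 0.59 FPKM in Wtap-HKO and 4.77 ± 0.98 FPKM in Wtapflox/flox livers (SD, n = 3 each), a log2 fold change of 0.59 (limma adjusted p = 0.0229). Eif2ak1, which encodes HRI, was lower by the deposited scale at 7.14 ± 0.20 FPKM in Wtap-HKO and 9.83 ± 0.11 FPKM in Wtapflox/flox livers (-0.45, adjusted p = 0.00518), but stood at 0.13 on the TPM scale and was not called there. Eif2ak4 (GCN2) at 0.20 and Eif2ak2 (PKR) at -0.24 were not called on the deposited scale. Ppp1r15a encodes GADD34, the ISR-induced subunit of the phosphatase that reverses eIF2 phosphorylation, and it was higher by 0.50 (adjusted p = 0.0182). The largest changes in the list were in Nck1, which encodes an adaptor that takes part in eIF2 dephosphorylation (1.38), Dnajc3, which encodes the PERK and PKR inhibitor p58IPK (-0.99), and Eif2b4, an eIF2B subunit (-0.68). Nck1 was higher and Dnajc3 lower on both scales, while Eif2b4 was not called with TPM (-0.10). The number of higher genes in the list was 2 without Wtap-HKO 2, 1 without Wtap-HKO 3, 1 without Wtapflox/flox 2 and 2 without Wtapflox/flox 3, with the call of Eif2ak3 lost without each of these and that of Ppp1r15a without the last 3 (adjusted p = 0.0525 to 0.0777).

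Genes of amino acid supply moved in both directions. Of 9 tested amino acid transporters known as ATF4 targets, 3 were higher and 2 lower, with a median of 0.68, and on the TPM scale 5 were higher and 1 lower. With Wtap-HKO 3 or any of the Wtapflox/flox libraries left out, 1 transporter was lower. Slc3a2, the heavy chain that carries several transporters to the membrane, averaged 50.6 FPKM in Wtap-HKO and 12.8 FPKM in Wtapflox/flox livers (log2 fold change 1.90, limma adjusted p = 0.00198). Slc1a4, a neutral amino acid carrier, was higher by 1.84, and Slc38a2, a sodium-coupled carrier that amino acid shortage induces, fell by 1.14 on the log2 scale. Of 11 tested enzymes of serine, glycine, proline, folate-cycle and transsulfuration metabolism, 5 were higher and 3 lower, with a median of 0.67, and on the TPM scale 8 were higher and 1 lower. Aldh18a1, the entry enzyme of proline synthesis, averaged 4.73 FPKM in Wtap-HKO and 0.587 FPKM in Wtapflox/flox livers (2.64, adjusted p = 0.000121). Mthfd1l, a mitochondrial folate enzyme, was higher by 2.23. Cbs, which opens transsulfuration, averaged 65.2 ± 9.13 FPKM in Wtap-HKO and 158 ± 17.2 FPKM in Wtapflox/flox livers (SD, n = 3 each) and fell by 1.27 on the log2 scale. Each of the 6 genes named here kept its call on the TPM scale.

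Charging enzymes for tRNA, many of which ATF4 is known to induce, gave more lower than higher calls on the deposited scale. Of 20 cytosolic aminoacyl-tRNA synthetases, 8 fell and 3 rose, at a median of -0.27, whereas TPM gave 0 lower and 11 higher calls and a median of 0.32. Mars (methionyl, -0.74) and Tars (threonyl, -0.68) were the largest of the lower calls, and both lost their call with TPM. The number of lower synthetases was 4 without Wtap-HKO 1, 5 without Wtap-HKO 3, 3 without Wtapflox/flox 1 and 4 without Wtapflox/flox 2. Gars (glycyl) was higher on both, by 0.66 on the deposited scale (limma adjusted p = 0.00120). The CARE letters were in 5 of the 13 synthetase genes with a RefSeq promoter, Aars, Gars, Iars, Tars and Yars, of which Gars was called higher, Aars, Tars and Yars lower and Iars not at all on the deposited scale.

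Further regulatory genes known as ATF4 or CHOP targets included some of the larger changes. Of 21 tested, 8 were higher and 4 lower, with a median of 0.21, and on the TPM scale 13 were higher and 3 lower. With a library left out, 6 to 9 were higher and 4 to 5 lower on the deposited scale. Atf3, a stress-induced repressor of the same family, averaged 7.07 ± 3.13 FPKM in Wtap-HKO and 0.687 ± 0.283 FPKM in Wtapflox/flox livers (SD, n = 3 each), a log2 fold change of 2.99 (limma adjusted p = 0.00129). Tnfrsf10b, the death receptor that CHOP induces, was higher by 2.96, and Cdkn1a, which encodes the cell cycle inhibitor p21, by 2.40. Among the 4 lower genes, named here after their values were seen, Herpud1, which encodes an ER membrane protein of protein degradation, averaged 78.9 ± 25.5 FPKM in Wtap-HKO and 396 ± 53.5 FPKM in Wtapflox/flox livers (SD, n = 3 each), a log2 fold change of -2.38 (adjusted p = 0.000906). It was lower under all 16 alternatives. Vegfa, an angiogenic growth factor gene, was at -1.23, Gabarapl1, an autophagy gene, at -1.15, and Map1lc3b, also of autophagy, at -0.49, the last not called with TPM (0.10). The CARE letters were in 4 of the 17 genes of this list with a RefSeq promoter, Atf3, Herpud1, Jdp2 and Vldlr. Of these, Atf3 was called higher, Herpud1 lower, and Jdp2 and Vldlr not at all on the deposited scale. Some of the 8 higher genes count in other lists too, Ppp1r15a under eIF2 control and Hmox1 among the NRF2 targets below. Tnfrsf10b, Cdkn1a and Bbc3 (0.58) also stand in a list of 16 p53 targets, of which 12 were higher and 1 lower with a median of 1.21. On the TPM scale 13 of these p53 targets were higher and 0 lower. The largest changes among those were in Phlda3, an AKT inhibitor (4.20), Tnfrsf10b, and Eda2r, a TNF receptor family gene (2.93). Wtapflox/flox libraries held only 8 to 32 reads of Phlda3 and 14 to 18 reads of Eda2r. Sesn2 is itself known as a p53 target, and so is Gdf15, and the part of p53 in their difference was not tested.

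The ER chaperone arm moved otherwise than the 10 genes on the deposited scale. Of 25 ER chaperones and ATF6 or XBP1 arm genes, 14 fell and 2 rose, at a median of -0.47, whereas TPM gave 3 lower and 9 higher calls and a median of 0.12. With a library left out, 10 to 13 of them were lower and 2 higher on the deposited scale. Hspa5, which encodes the chaperone BiP, was 1 of the 2 higher genes, at 245 ± 18.8 FPKM in Wtap-HKO and 179 ± 9.27 FPKM in Wtapflox/flox livers (SD, n = 3 each), a log2 fold change of 0.45 (limma adjusted p = 0.0126). Xbp1 was lower by the deposited scale (-0.64) and at -0.05 on the TPM scale, where it was not called. Creld2 (-1.10) and Syvn1 (-0.99), with Dnajc3 the largest called changes among genes of at least 1 FPKM, were lower on both scales. Derl3, named after its values were seen and under that limit, was at -1.06 and was not called with TPM.

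Mitochondrial chaperones and proteases gave 3 higher and 2 lower calls among 14, with a median of -0.06, and 11 higher and 0 lower on the TPM scale. Oma1, the protease that relays mitochondrial stress to HRI, was higher by 0.52 and Lonp1, a matrix protease, by 0.47, both also on the TPM scale. Yme1l1, an inner membrane protease, was at -0.51 on the deposited scale and at 0.07 on the TPM scale. Without Wtap-HKO 3 the list held 1 higher and 1 lower call and Lonp1 lost its own (adjusted p = 0.0515), 4 were lower without Wtap-HKO 2, and 1 was lower with any other library left out. NRF2 targets, a list of redox genes that also responds to stress, gave 3 higher and 3 lower calls among 11 tested on the deposited scale, and 7 higher and 0 lower calls with TPM. They were led by Gsta1 (3.89), Nqo1 (1.22) and Gclm (-0.83, not called with TPM).

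For the hormones FGF21 and GDF15, genes of their receptors were given as well. Klb, the gene of beta-Klotho, averaged 7.19 ± 2.08 FPKM in Wtap-HKO and 10.7 ± 0.50 FPKM in Wtapflox/flox livers (SD, n = 3 each) and was called lower on the deposited scale (-0.60, limma adjusted p = 0.0464), but stood at -0.02 on the TPM scale. The call of Klb held under 8 of the 16 alternatives. It was lost with any library but Wtap-HKO 2 left out (adjusted p = 0.0976 to 0.126). Fgfr4 averaged 4.52 ± 2.04 FPKM in Wtap-HKO and 11.9 ± 1.01 FPKM in Wtapflox/flox livers, a log2 fold change of -1.46 (adjusted p = 0.00967), which was -0.91 and not called on the TPM scale (adjusted p = 0.0561). Fgfr1 was at 0.73 and not called, but without Wtap-HKO 2 it was at 1.13 (adjusted p = 0.0410), when 2 receptor genes were higher. Of 5 tested receptor genes, 0 were higher and 2 lower on the deposited scale, and 2 were higher and 0 lower on the TPM scale. Gfral, the hindbrain receptor of GDF15, was under the filter, with a mean of 0.008 FPKM in Wtap-HKO livers and 0 in Wtapflox/flox livers.

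**Figure D5:**
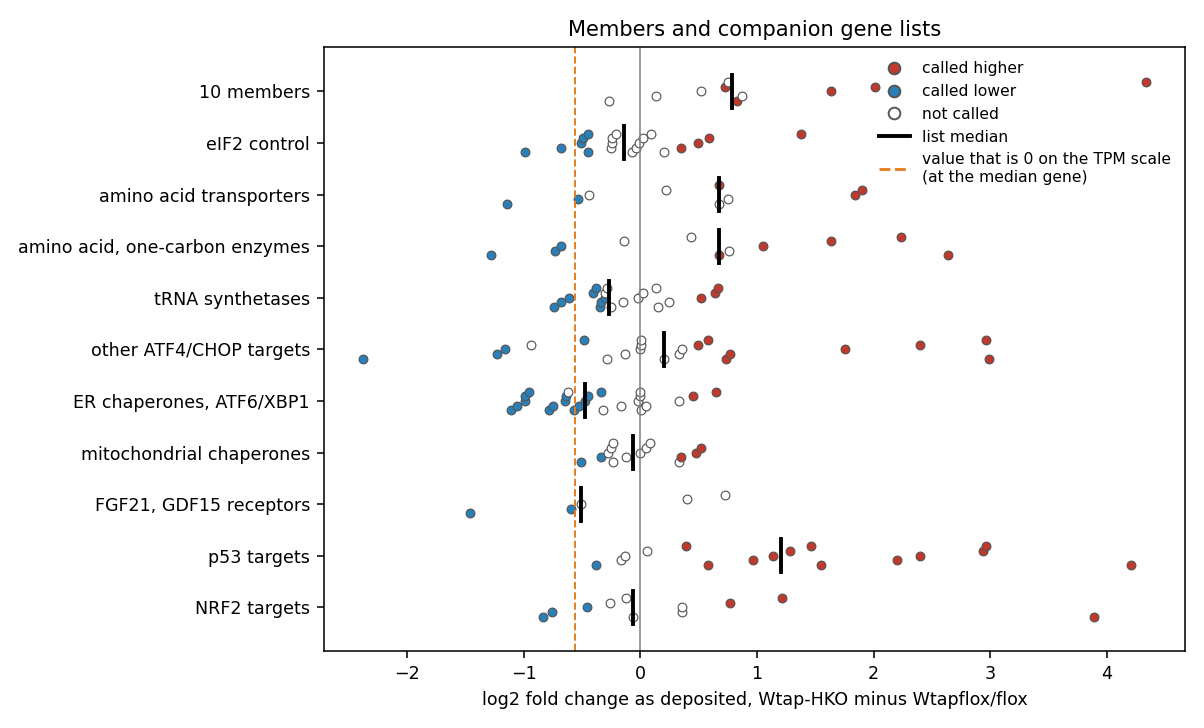
Log2 fold change on deposited FPKM, Wtap-HKO minus Wtapflox/flox, of the 10 genes and of 10 lists of related genes (1 point per gene tested, red called higher, blue called lower, white not called, black bar for the list median). The dashed line marks the value that corresponds to 0 on the TPM scale at the median gene. The medians run between -0.51 for the receptors and 1.21 for p53 targets, with 0.79 for the 10 genes.

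Many genes differed between the groups, and many followed the profile of the 5 higher ISR genes. Of 10320 protein-coding genes that averaged 1 FPKM or more, 1365 had a Pearson r over 0.9 with Nupr1 across the 6 libraries, 922 with Trib3 and 1017 with Gdf15. The nearest to Nupr1 were Naglu, Ttc33 and Pgm1 (r up to 0.999), to Trib3 Tma16, Cstf2t and Nsrp1 (r up to 0.999), and to Gdf15 Oser1, Plac8 and Gbp2 (r up to 0.998). The points are libraries of 2 groups, so that r mostly reflects the gap between groups. Within groups, with the means of each removed, Asns and Ddit3 had r = 0.97 and Gdf15 had r = 0.97 with Ddit3 and 0.96 with Asns, while Nupr1 had r = 0.97 with Trib3 and 0.80 with Atf4. Trib3 had r = 0.90 with Atf4, whereas Sesn2 had r = 0.11 with Atf4 and -0.16 with Chac1, and Atf5 had r = 0.17 with Trib3. Pairs drawn from all genes were not set beside these values. These are descriptions over 6 libraries that share their depth and scaling.

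Markers of several cell types differed between the groups as well. Over all genes tested, 19.5% were called higher and 20.7% lower on the deposited scale, and 48.8% higher on the TPM scale. The counts of higher lymphocyte markers were near these shares on both scales. Of 7 hepatocyte markers, 6 were lower and 0 higher on the deposited scale, with a summed level of 27083 to 30981 FPKM in Wtap-HKO and 57390 to 64786 FPKM in Wtapflox/flox livers, and 2 were lower on the TPM scale. Of 10 macrophage markers, 8 were higher (summed 335 to 479 FPKM in Wtap-HKO and 191 to 231 FPKM in Wtapflox/flox livers). Of 4 tested neutrophil markers, 3 were higher (20.6 to 31.3 FPKM in Wtap-HKO and 4.15 to 10.2 FPKM in Wtapflox/flox livers). Of 8 stellate cell markers, 6 were higher (52.0 to 123 FPKM in Wtap-HKO and 27.9 to 37.4 FPKM in Wtapflox/flox livers), and of 6 cholangiocyte markers, 3 were higher (80.7 to 271 FPKM in Wtap-HKO and 45.6 to 69.5 FPKM in Wtapflox/flox livers). Of 6 endothelial markers 2 were higher (43.1 to 49.965 FPKM in Wtap-HKO and 35.2 to 45.1 FPKM in Wtapflox/flox livers), and of 6 tested lymphocyte markers 1 was higher (3.79 to 5.27 FPKM in Wtap-HKO and 2.36 to 3.58 FPKM in Wtapflox/flox livers). With any library but Wtap-HKO 2 left out, 0 or 1 cholangiocyte and 0 lymphocyte markers were called, and with any but Wtapflox/flox 3 left out, 1 endothelial marker was. With TPM the higher calls were 10 of 10 macrophage, 4 of 4 neutrophil, 8 of 8 stellate, 5 of 6 cholangiocyte, 6 of 6 endothelial and 3 of 6 lymphocyte markers, and 0 of 7 hepatocyte markers. No marker was at 0 in all 6 libraries. By summed FPKM, stellate and cholangiocyte markers were lowest in Wtap-HKO 2 among the Wtap-HKO livers and macrophage markers were highest there. In this library 9 of the 10 ISR genes were highest. Single macrophage markers were not alike: Cd5l and Marco were highest in Wtap-HKO 2, whereas Cd68, Cx3cr1 and Ccr2 were lowest there among the Wtap-HKO livers. The part of these cells in the levels of the 10 genes was not tested.

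Of the libraries as a whole, the reads rebuilt from the FPKM numbered 16254033 to 18510477 in Wtap-HKO and 15559250 to 16712433 in Wtapflox/flox livers. The first principal component held 62.6% of the variance and separated the groups. Wtap (chromosome 17, 12966796 to 12994169) had 5.86, 6.45 and 5.77 FPKM in Wtap-HKO livers, against 5.31, 5.94 and 5.56 FPKM in Wtapflox/flox livers, and was not called (log2 fold change 0.10, limma adjusted p = 0.440). The value covers the whole gene, whereas Cre removes 1 exon, exon 4, so that it does not check the deletion, and on TPM it was called higher (0.68, adjusted p = 0.00150).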

How the data were processed

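RNA of 6 mouse livers was sequenced, and the labels gave the groups and replicate numbers. The study describes separate mice, and within a group libraries differed beyond sampling noise (chi-square per degree of freedom 19.7 to 37.1). The authors aligned paired-end reads to GRCm38.p6 with TopHat2, counted them with HTSeq 0.6.1 and deposited FPKM per gene. Not given in the sources used here are the annotation, the strand setting and the program behind the FPKM. FPKM times gene length gave whole reads for 100% of values within 0.01 reads. The library size behind the FPKM was 1.17 to 1.24 times the read sum in Wtap-HKO and 0.834 to 0.846 times in Wtapflox/flox, so that a scaling between libraries is in the values.

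Of the 54777 genes, the 16547 with a mean of at least 0.2 FPKM were tested on log2(FPKM + 0.2) with limma 3.58.1 (lmFit, eBayes with trend) in R 4.3.3, two-sided, with Benjamini-Hochberg adjustment and calls at 0.05. The test was checked on simulated data with 200 changed genes. The simulated libraries varied less than Nupr1, Trib3 and Fgf21 did among Wtap-HKO livers, so that this check does not bear on those genes. The TPM scale divides each FPKM by its library's sum. In the 16 alternatives the pseudocount was 1 or 0.05, the filter 1 FPKM or absent, and others used eBayes without trend, the TPM scale, median-of-ratios factors, a replicate block, protein-coding genes alone, voom on rebuilt reads or 5 of the 6 libraries. Same-numbered libraries did not deviate together, so that no pairing was assumed.

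The 10 genes and the 17 lists beside them were chosen with earlier results of these data known. The text names Wtap, the 10 genes, in each list the 3 called genes that changed most and averaged 1 FPKM or more, a fixed set of kinases, receptors and ER genes, and the 3 genes most alike to 3 members. Marker genes stand in counts and sums, save the macrophage markers named for their order among Wtap-HKO libraries. Those markers, and the synthetases and the ATF4 or CHOP targets with a promoter match, were named after their values were seen. Bbc3 and Hmox1 are named because lists share them. Promoters are RefSeq's. Tables and plots used pandas 2.3.3, matplotlib 3.10.9 and numpy 2.4.6 in Python 3.11.15.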

Additional observations from a re-analysis of the deposited data

How the results depend on the processing

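Nupr1, Trib3 and Gdf15 were called higher under all 16 alternatives, with adjusted p of at most 0.00582, 0.0229 and 0.0249 (limma). Asns kept its call in 14 and Sesn2 in 11. Of 160 values of the 10 genes under alternatives, 143 kept direction and side of the threshold, 7 lost the call, 7 gained one and 3 changed sign. The count of 5 higher genes was 9 on the TPM scale and 3 to 6 with a library left out. It was 3 without Wtap-HKO 3 or Wtapflox/flox 1 (Asns and Sesn2 lost) and 6 without Wtap-HKO 1 (Ddit3 gained). With a replicate block it was 7, adding Chac1 (adjusted p = 0.0428) and Fgf21 (0.0136), and same-numbered libraries had deviations that correlated at r = 0.015, 0.043 and 0.064, each under 0.1, although every Wtap-HKO library correlated best with its own number (Wtapflox/flox 1 did not). Atf4 ranged between -0.080 and 0.30 with a library left out. On the TPM scale Atf5 was at 0.32, Yme1l1 at 0.074, Eif2ak1 at 0.13 and Eif2ak2 at 0.34, each with its sign changed. Of 576 values of 36 further named genes, 547 kept direction and side, 22 lost the call, 4 gained one and 3 changed sign. Over all genes, 3222 were higher and 3431 lower on deposited FPKM, and 8074 higher and 996 lower on the TPM scale. Going to TPM multiplied each library by 1 factor, 2.99 to 3.27 in Wtap-HKO and 2.05 to 2.15 in Wtapflox/flox. That scaling moved the median log2 fold change of all genes tested from 0.005 to 0.56. What lies behind the scaling in the deposited values, and the causes of the other shifts, were not tested. With 3 libraries a group and 18 to 71 reads per Wtapflox/flox library for Nupr1 and Chac1, counting error adds to the spread of these genes.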
